A study of Mus musculus with 12 samples.

Results

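The genes described here are 29 mouse genes of glucose production, glucose breakdown, glycogen storage and insulin signalling, chosen by name. All 29 were found in the count table by their symbols, among 22984 genes with any count, and 29 of 29 passed the filter on low counts, which left 13866 genes to test. They were measured by RNA-seq in livers of C57BL/6 mice in 4 groups of 3 samples. The first group ate a standard diet, labelled SD (SD stands for this diet throughout, never for a standard deviation). The second ate a diet labelled MASLD, for metabolic dysfunction-associated steatotic liver disease, and had no drug. The remaining groups ate the MASLD diet and were given Aza-TdC, a deoxycytidine analogue that lowers the DNA methyltransferase DNMT1, at the relative doses 0.1x and 1x. No group on the standard diet received the drug, so drug and diet cannot be told apart in a comparison of a treated group with SD. The labels give no age, sex, feeding state at collection, absolute dose, drug-free vehicle or diet composition, and nothing in them ties each sample to an animal of its own, so the p-values rest on the spread among samples, which may be technical.

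Library totals ran from 30213048 to 41852606 counts. Levels are given as CPM, the share of a library's counts that fall on the gene with every library set to a common total, after scaling of each library by TMM, a factor that assumes most genes do not differ. A gene is said to have risen, fallen or passed where its adjusted p was under 0.05 (edgeR quasi-likelihood F test, two-sided, Benjamini-Hochberg over all 13866 genes). Values after ± beside a log2 fold change are standard errors. In some libraries the counts drifted with the GC content and length of genes. This trend was fitted to each library's log CPM after subtracting every gene's mean over all samples. It took 22.3% of the variance of these deviations in 0.1x replicate 3 and 18.6% in 1x replicate 2, against 0.307% to 12.1% in the others. Each member's call was therefore also made with that trend removed from every library. As the mean runs over all groups, the removal can also take away group differences that follow GC content or length. Summed hepatocyte markers (11 of 12 listed genes found, none at 0) lay at 186390 to 196170 CPM in SD, 97187 to 119040 in MASLD, 102800 to 153210 at 0.1x and 112550 to 133870 at 1x. Summed macrophage and Kupffer cell markers (12 of 12 found, none at 0) lay at 137 to 207 CPM in SD, 295 to 491 in MASLD, 349 to 384 at 0.1x and 153 to 259 at 1x.

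The liver keeps blood glucose steady between meals. In fasting it makes glucose from lactate, alanine and glycerol (gluconeogenesis) and releases it from glycogen. After a meal, insulin binds its receptor INSR, the adaptors IRS1 and IRS2 pass the signal to the kinase AKT2, and AKT2 keeps the transcription factor FOXO1 out of the nucleus. FOXO1, with its coactivator PGC-1alpha (gene Ppargc1a), otherwise raises transcription of Pck1, G6pc, Irs2 and Igfbp1, so those genes are widely used as readouts of hepatic insulin action. Glucagon acts in the opposite direction through cyclic AMP.

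Upstream sequences of 4 members are shown because these genes had the largest changes with diet (Pck1 and G6pc) or between doses (Igfbp1 and Ppp1r3c). They come from RefSeq (build GRCm38.p6), 250 bases before the start site, 5′ to 3′ on the gene's strand, and capitals mark a searched motif. In Igfbp1, chr11:7197537-7197786 on the plus strand, the capitals are CAAAACA, the core of the insulin response element. In G6pc, chr11:101367466-101367715 on the plus strand, they are the same core read on the other strand. In Pck1, chr2:173152823-173153072 on the plus strand, they are TGACG, the short site of the cyclic AMP response element, on the other strand. In Ppp1r3c, chr19:36736605-36736854 on the minus strand, they are the E-box CACGTG.
Igfbp1: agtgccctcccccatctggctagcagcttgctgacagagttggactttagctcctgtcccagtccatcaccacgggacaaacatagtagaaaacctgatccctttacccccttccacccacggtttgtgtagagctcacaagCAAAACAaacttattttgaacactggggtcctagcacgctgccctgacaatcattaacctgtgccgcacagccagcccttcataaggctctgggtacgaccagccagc
G6pc: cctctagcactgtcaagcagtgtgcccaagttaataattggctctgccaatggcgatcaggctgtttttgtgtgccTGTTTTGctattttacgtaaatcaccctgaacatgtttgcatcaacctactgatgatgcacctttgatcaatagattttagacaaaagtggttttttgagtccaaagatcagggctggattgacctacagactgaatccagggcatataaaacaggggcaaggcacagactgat
Pck1: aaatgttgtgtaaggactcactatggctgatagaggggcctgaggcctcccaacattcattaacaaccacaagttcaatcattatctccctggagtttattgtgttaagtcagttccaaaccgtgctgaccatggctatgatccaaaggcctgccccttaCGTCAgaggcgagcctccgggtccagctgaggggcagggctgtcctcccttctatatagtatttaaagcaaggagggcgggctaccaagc
Ppp1r3c: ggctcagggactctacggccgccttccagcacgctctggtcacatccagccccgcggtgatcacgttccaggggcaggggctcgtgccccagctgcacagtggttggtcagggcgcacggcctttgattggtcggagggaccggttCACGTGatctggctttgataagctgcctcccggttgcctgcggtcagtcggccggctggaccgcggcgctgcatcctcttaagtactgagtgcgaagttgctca

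Of the 29 members, 26 had an entry in the promoter table, which holds 250 bases before to 50 after each start site. The motif CAAAACA was found on either strand in 4 of those 26 (G6pc, Irs1, Irs2 and Igfbp1), and in 7.20% of the 27025 genes of the table (6.28% of its promoters). CACGTG was found in 8 of 26 (Pcx, Khk, Pfkfb3, Ldha, Pdk2, Ppp1r3c, Irs1 and Irs2) and in 8.09% of genes (7.15% of promoters). TGACG was found in 11 of 26 and in 23.0% of genes (20.8% of promoters). The full element TGACGTCA, which contains TGACG on both strands, was in Ldha and in 2.03% of genes (1.79% of promoters). The forkhead core TGTTTAC was in 0 of 26 and in 4.05% of genes (3.65% of promoters), and the short glucocorticoid site TGTTCT was in Tpi1 and in 21.3% of genes (19.0% of promoters). A match describes letters in this window and is not a measured binding site. The drug acts on the methylation of cytosine in CpG pairs, so these were counted too. In the full window, at each gene's start site with the most CpG pairs, the members' promoters held a median of 20 (range 2 to 41). The median was 8 over all 27025 genes of the table. Those genes were not filtered by expression, whereas all members passed the low-count filter, so the sets are not alike. At other start sites Akt2 and Pfkfb1 held as few as 0 and 1. The 250 bases shown, without those after the start, hold 5 in Igfbp1, 2 in G6pc, 5 in Pck1 and 20 in Ppp1r3c. Methylation itself is not analysed here.

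Levels scaled to exon length, which allow genes to be set against each other, spanned a wide range. In SD, Pck1 was the most abundant member at 1062 CPM per kilobase, followed by Fbp1 at 667 and Khk at 350.2, and Ppargc1a was the lowest at 0.667. On the MASLD diet Pck1 (413 CPM per kilobase) stood below Fbp1 (487), and at 0.1x (602 against 463) and 1x (833 against 527) it stood above it again, but these are single steps of neighbours in an order. G6pc went from the 7th place of 29 in SD to the 11th in MASLD, the 13th at 0.1x and the 11th at 1x. Enzymes and transporters filled the first 15 places in every group, but the order did not split by role below that. In SD the insulin signalling members Igfbp1 (16th) and Akt2 (19th) stood above the enzymes Pfkfb1 (21st), Pfkl (22nd) and Pfkfb3 (27th). The remaining signalling genes, Insr, Foxo1, Irs1, Irs2 and Ppargc1a, lay between 0.571 and 6.28 CPM per kilobase in every group.

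**Figure D1:**
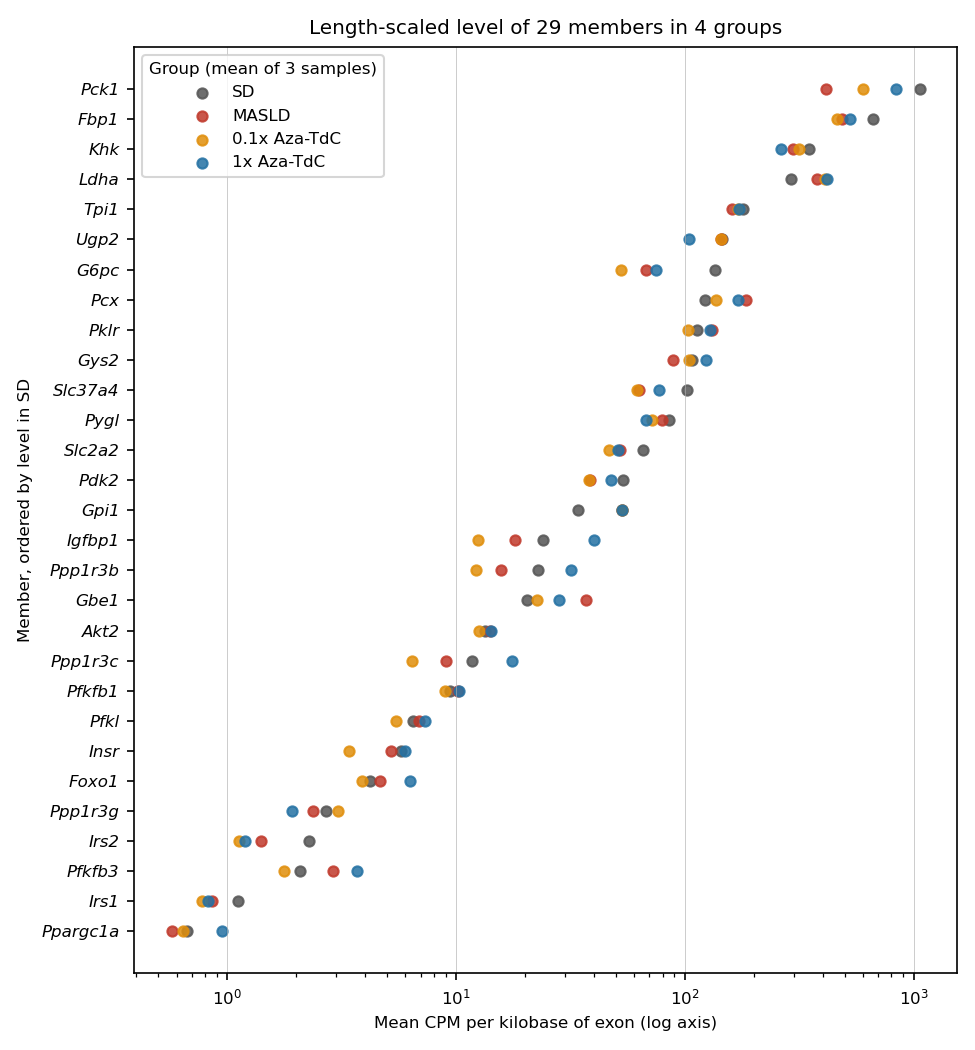
Mean level of each of the 29 members per kilobase of exon (log axis) in the 4 groups, each point the mean of 3 samples, ordered by the level in SD. Pck1 leads at 1062 CPM per kilobase in SD, and Ppargc1a is lowest at 0.667.

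The MASLD diet moved members in both directions. Against SD, 5 of 29 members rose and 6 fell, where 15.6% of all tested genes rose and 13.9% fell. The median log2 fold change was −0.19 over the members and 0.03 over all genes. Of the 5 gluconeogenic members 4 fell and 1 rose, of the 10 members of glycolysis and glucose uptake 3 rose and 1 fell, of the 7 glycogen members 1 rose and 1 fell, and of the 7 insulin signalling members 0 passed (edgeR). Unadjusted p was under 0.05 for 2 of those 7, Irs1 and Irs2, and for 5719 of all 13866 genes. DESeq2 called 1 of the 7, Irs2, and 4406 of all genes. With the trend removed 3 of the 7 passed, all lower (Insr, Irs1 and Irs2), beside 1998 of all genes lower and 2065 higher. The 11 calls became 7 without SD replicate 4 and 6 without MASLD replicate 4.

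At 0.1x, 0 members rose and 3 fell against MASLD (Pfkfb3, Gbe1 and Insr), beside 6.08% of all genes higher and 7.09% lower. Among the rises, unadjusted p was under 0.05 for 1 member, Pck1, and DESeq2 called 0. However, 1 member was higher without 0.1x replicate 3, beside 528 of all genes. The same count was found without that library and 1x replicate 2 (764 of all genes) and without the filter on low counts (993). The 3 calls became 1 with the trend removed and without MASLD replicate 4 or 5, and 5 without 0.1x replicate 4. At 1x, 3 rose (Pck1, Ppp1r3b and Igfbp1) and 1 fell (Ugp2), beside 1.49% of all genes higher and 1.62% lower. The 4 calls became 1 without MASLD replicate 3 or 1x replicate 2 and 2 without MASLD replicate 4 or 1x replicate 5. Both comparisons share the MASLD libraries. Compared directly, 7 members were higher at 1x than at 0.1x (Pfkl, Pfkfb3, Ppp1r3b, Ppp1r3c, Insr, Foxo1 and Igfbp1) and 1 was lower (Ugp2), beside 7.13% of all genes higher and 5.86% lower. The members' median log2 fold change between the doses was 0.31, and that of all genes −0.01. Without replicate 3 of 0.1x and replicate 2 of 1x, the libraries with the strongest trend, 4 members passed between the doses, and with the trend removed 5 passed. Leaving out 1 library brought the 8 calls to 4 (1x replicate 2) or 5 (1x replicate 5). Upper-quartile scaling put 43.2% of all calls between the doses on the higher side, against 54.9% with TMM, and gave the members' median as 0.26. The summed macrophage markers did not overlap between the doses, with 5 of 12 lower at 1x, nor did the erythroid ones (460.2 to 576 CPM at 0.1x and 200.2 to 355 at 1x, 4 of 5 lower), while 2 of 11 hepatocyte markers were higher and 1 lower. Against MASLD at 1x, 3 macrophage and 2 erythroid markers were lower. The part of these shifts in the members' differences was not tested.

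Set against SD, the 0.1x livers had 2 members higher and 11 lower, beside 9.85% and 10.9% of all genes, and the 1x livers had 8 higher and 4 lower, beside 9.91% and 9.84%. The lean to higher members at 1x depended on the setting, with 8 higher and 9 lower by DESeq2, 6 and 6 with the trend removed, 8 and 8 without 0.1x replicate 3, and 3 and 4 without SD replicate 5. At each dose 7 of 11 hepatocyte markers were lower than in SD. Macrophage markers were higher in 7 of 12 at 0.1x and 1 of 12 at 1x, and endothelial markers in 4 and 6 of 8, and their part in these counts was not tested. The 13 calls at 0.1x became 7 without SD replicate 3, and the 12 at 1x became 7 without SD replicate 5 or 1x replicate 5 and 6 without 1x replicate 2. The lowest of the 4 group means was that of 0.1x in 17 of 29 members (25.5% of all genes), and the highest was that of 1x in 12 (19.8% of all genes) and of SD in 12 (28.3%). Without the 2 libraries named above, 0.1x was lowest in 13 and 1x highest in 9, and with the trend removed in 13 and 10. Of the 29 members, 9 passed in 0 of the 6 comparisons with edgeR. For these 9, unadjusted p was under 0.05 in 8 of the tests, and DESeq2 called 2 (Khk and Pygl, at 1x against SD). Ppp1r3b passed in 5 comparisons, the most of any member. How many of all genes passed in 0 or in 5 comparisons was not counted, so these member counts have no background beside them.

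**Figure D2:**
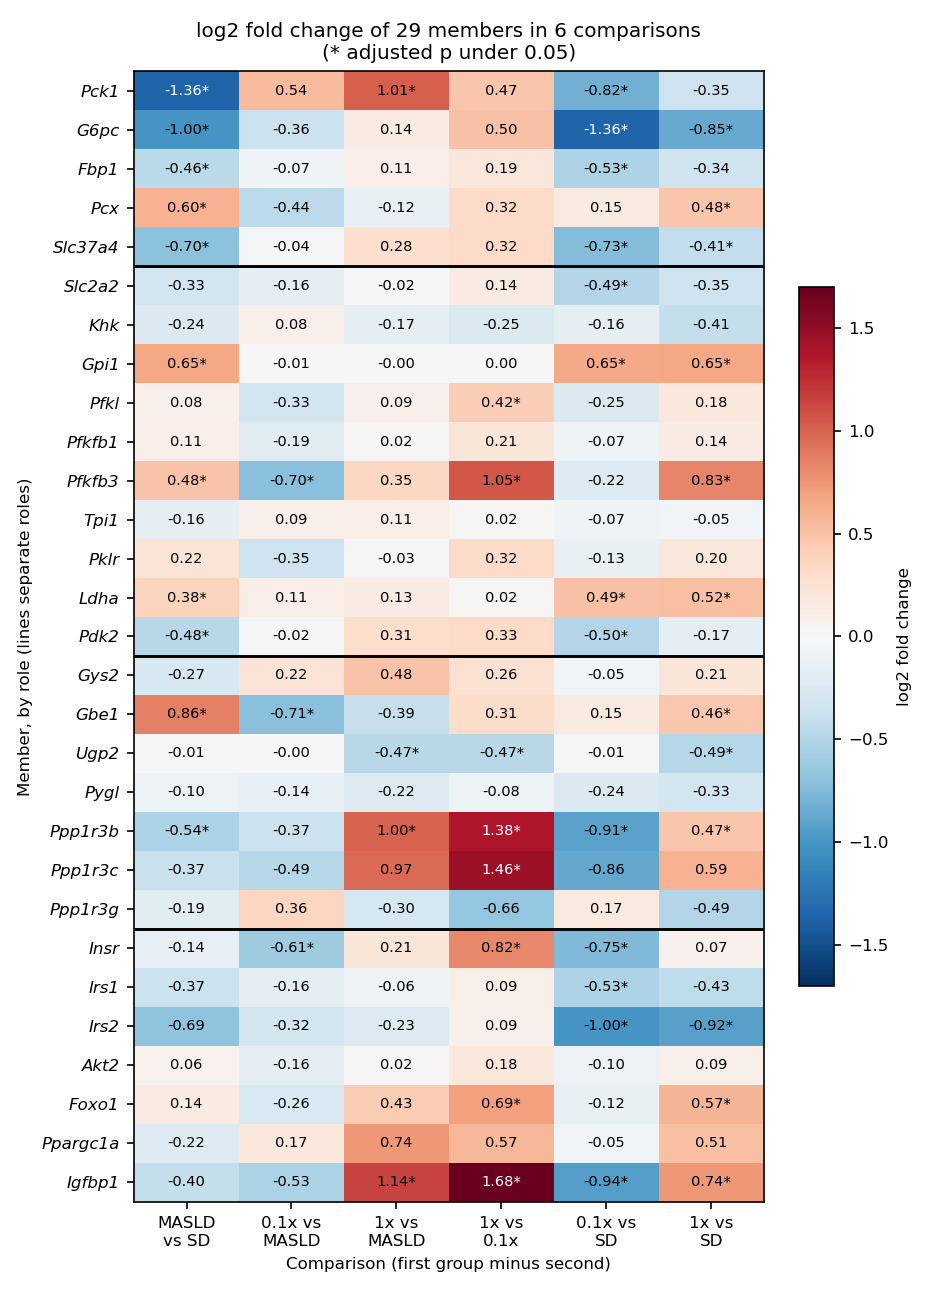
log2 fold change of the 29 members (rows, grouped by role) in the 6 comparisons (columns, first group minus second), with an asterisk where the adjusted p was under 0.05. The column of 1x against 0.1x holds 7 members that were higher and 1 that was lower, and the glucose-producing genes at the top are lower in the MASLD column except Pcx.

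Pck1 encodes cytosolic phosphoenolpyruvate carboxykinase, which commits carbon to gluconeogenesis. Its level was 4393, 3423 and 3104 CPM in SD, 1322, 1139 and 1788 in MASLD, 2369.7, 1438.5 and 2384 at 0.1x, and 3526, 2139.7 and 2908 at 1x. The MASLD samples all lay below SD, the 1x samples all lay above MASLD and overlapped SD, and the 0.1x samples overlapped both MASLD and 1x. Pck1 fell by 1.36 ± 0.24 on the log2 scale with the diet (adjusted p = 6.49e-04) and was 1.01 ± 0.23 higher at 1x than in MASLD (adjusted p = 0.0322). At 0.1x the difference from MASLD was 0.54 ± 0.23 (adjusted p = 0.128) and the doses differed by 0.47 ± 0.23 (adjusted p = 0.188), so neither passed. Its promoter is shown above with the short cyclic AMP site. The call at 1x did not pass without MASLD replicate 3 or 4 or 1x replicate 2 or 5, each left out alone (adjusted p from 0.0818 to 0.180), and that of 0.1x against SD (−0.82 ± 0.23, adjusted p = 0.0227) did not pass without SD replicate 3 or 0.1x replicate 3 (0.0698 and 0.0777).

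G6pc encodes the catalytic subunit of glucose-6-phosphatase, the last step of glucose release. Its level was 239, 485 and 256 CPM in SD, 131, 179 and 181 in MASLD, 129, 135 and 118 at 0.1x, and 190.4, 182 and 169 at 1x. Every sample on the MASLD diet, treated or not, lay below every SD sample, and 1 SD sample, replicate 4, lay far above the other two. G6pc fell by 1.00 ± 0.22 with the diet (adjusted p = 0.00325), and it was also lower than SD at 0.1x (−1.36 ± 0.22, adjusted p = 5.96e-04) and 1x (−0.85 ± 0.22, adjusted p = 0.0119). Without SD replicate 4 these log2 differences were −0.60, −0.96 and −0.45, and all 3 calls held. The doses did not overlap for G6pc, with a difference of 0.50 ± 0.21 that did not pass (adjusted p = 0.129).

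Slc37a4 encodes the transporter that brings glucose 6-phosphate to that enzyme in the endoplasmic reticulum. Its level was 258 to 318 CPM in SD, 162 to 198 in MASLD, 165 to 183 at 0.1x and 214 to 224 at 1x. The 1x samples formed a narrow band between SD and the other groups. Slc37a4 fell by 0.70 ± 0.11 with the diet (adjusted p = 3.72e-04), and was also lower than SD at 0.1x (−0.73 ± 0.11, adjusted p = 4.29e-04) and at 1x (−0.41 ± 0.11, adjusted p = 0.0183), the last not without SD replicate 4 or 5 or 1x replicate 4 or 5 (0.0568 to 0.0770). Its differences at 1x from MASLD (0.28 ± 0.11, adjusted p = 0.200) and from 0.1x (0.32 ± 0.11, adjusted p = 0.0711) did not pass. By DESeq2 the difference between the doses passed (0.31, adjusted p = 0.0389).

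Fbp1, which encodes fructose-1,6-bisphosphatase, stood at 1069.5 to 1228 CPM in SD, 785 to 857 in MASLD, 694 to 910.2 at 0.1x and 856 to 928 at 1x. All SD samples were above all others. Fbp1 fell by 0.46 ± 0.12 with the diet (adjusted p = 0.0121), but with the trend removed the difference was −0.25 (adjusted p = 0.140), and the call was lost without SD replicate 4 or MASLD replicate 4 (0.0537 and 0.0555). At 0.1x against SD the fall of 0.53 ± 0.12 passed (adjusted p = 0.00756), also with the trend removed. At 1x against SD the difference of −0.34 did not pass (adjusted p = 0.0635), nor with the trend removed (−0.16, 0.396), but by DESeq2 it did (0.0123). Pcx, which encodes pyruvate carboxylase at the mitochondrial entry to the pathway, went the other way, with 538, 630.3 and 577 CPM in SD, 864, 782 and 993 in MASLD, 616, 556 and 771 at 0.1x, and 780.2, 739 and 907 at 1x. Pcx rose by 0.60 ± 0.14 with the diet (adjusted p = 0.00652), and the 0.1x samples all lay below MASLD by a difference that missed the threshold (−0.44 ± 0.14, adjusted p = 0.0548). That difference passed by DESeq2 (−0.43, adjusted p = 0.0222) but was −0.22 with the trend removed (adjusted p = 0.298). At 1x Pcx was 0.48 ± 0.14 above SD (adjusted p = 0.0309), a call lost without SD replicate 3 or 5 or 1x replicate 2 or 5 (0.0650 to 0.129).

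The hepatocyte marker sums given at the start fell with the diet as these 4 genes did, with 9 of the 11 markers lower, and the macrophage sums rose, with 11 of 12 markers higher. Other marker sums did not overlap between SD and MASLD either. Endothelial sums were 119 to 163 CPM in SD and 191 to 221 in MASLD (4 of 8 markers higher), and stellate sums 116 to 138 and 206 to 306 (6 of 8 higher). Cholangiocyte sums were 23.1 to 36.1 and 49.8 to 160.4 (3 of the 6 tested higher). The 160.4 was MASLD replicate 4, against 54.3 and 49.8 in the others. The gene Spp1 is in both the cholangiocyte and the macrophage list, so these sums are not separate. Pancreas sums were 35.0 to 41.5 and 9.09 to 14.3 (1 of the 2 tested lower). Fewer hepatocytes and less RNA of a gene per hepatocyte cannot be told apart in whole liver, and the part of cell makeup in these falls was not tested.

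Slc2a2, the glucose transporter GLUT2, stood at 415, 402 and 311 CPM in SD, 285 to 311 in MASLD, 212 to 303 at 0.1x and 285 to 303 at 1x. It was lower than SD by 0.49 ± 0.14 at 0.1x (adjusted p = 0.0236), a call lost without SD replicate 3 or 4 or 0.1x replicate 3 (0.0661 to 0.0888). Its difference with the diet was −0.33 ± 0.14 (adjusted p = 0.0921), and −0.47 with the trend removed (adjusted p = 0.0194), which passed. At 1x against SD it was −0.35 (−0.48 with the trend removed, adjusted p = 0.0248, which passed). By DESeq2 its differences from SD in MASLD and at 1x passed (adjusted p = 0.0491 and 0.0470). Khk, the ketohexokinase that phosphorylates fructose, lay between 415 and 698 CPM with overlapping groups and did not pass in any comparison.

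Gpi1, the isomerase between glucose 6-phosphate and fructose 6-phosphate, stood at 240.2, 218 and 199 CPM in SD and 338, 327 and 369 in MASLD. At 0.1x it was spread over 335, 242 and 452 CPM, and at 1x it was 346, 331 and 355. It rose by 0.65 ± 0.17 with the diet (adjusted p = 0.0103) and its difference from MASLD did not pass at either dose, with 95% intervals from −0.37 to 0.36 at 0.1x and from −0.36 to 0.36 at 1x. Against SD it passed at 0.1x (0.65 ± 0.17, adjusted p = 0.0154) and 1x (0.65 ± 0.17, adjusted p = 0.0149). The first of these calls was lost without SD replicate 4 or 5 or without 0.1x replicate 4 (0.0536 to 0.0738), the last of which brought the difference to 0.40, and the second without SD replicate 5 (0.0683).

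Pfkfb3 encodes an enzyme that makes fructose 2,6-bisphosphate, the activator of phosphofructokinase. It stood at 14.1, 16.1 and 16.9 CPM in SD, 21.3, 20.7 and 23.7 in MASLD, 15.9, 11.7 and 12.7 at 0.1x, and 34.1, 20.4 and 29.2 at 1x. The 0.1x samples all lay below the MASLD and 1x samples. Pfkfb3 was 1.05 ± 0.17 higher at 1x than at 0.1x (adjusted p = 0.00493) and 0.83 ± 0.17 higher at 1x than in SD (adjusted p = 0.00333), and both calls held with the trend removed and without any 1 library. Its rise with the diet (0.48 ± 0.17, adjusted p = 0.0439) and its fall at 0.1x against MASLD (−0.70 ± 0.17, adjusted p = 0.0192) were lost with the trend removed (0.33 with adjusted p = 0.118, and −0.48 with 0.0916). The diet call was also lost without any of the 3 SD or 3 MASLD samples, 0.1x replicate 4 or 1x replicate 5 (0.0523 to 0.131), and with RLE factors. The 0.1x call was also lost without any of the 3 MASLD samples or 0.1x replicate 3 (0.0535 to 0.0702). Pfkfb1, the liver form of this enzyme, lay between 27.4 and 51.7 CPM and did not pass in any comparison.

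Pfkl, the liver phosphofructokinase, stood at 39.9, 47.4 and 42.6 CPM in SD, 49.0, 41.8 and 46.9 in MASLD, 34.7, 31.7 and 42.9 at 0.1x, and 51.4, 46.1 and 49.2 at 1x. It was 0.42 ± 0.12 higher at 1x than at 0.1x (adjusted p = 0.0372). The call was lost with the trend removed (0.29, adjusted p = 0.0913), with upper-quartile factors, and without MASLD replicate 3 or 5, 0.1x replicate 1 or 3, or 1x replicate 2 or 5 (0.0518 to 0.155). Pklr, the liver pyruvate kinase, had no call, although its 0.1x samples (312, 308 and 382 CPM) all lay below those of MASLD (423, 406 and 446) and of 1x (461, 386 and 406). Tpi1, the triose phosphate isomerase, lay between 423 and 521 CPM and did not pass in any comparison.

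Ldha, the lactate dehydrogenase subunit that interconverts pyruvate and lactate, stood at 826, 969.5 and 1098 CPM in SD, 1302, 1194 and 1271 in MASLD, 1346, 1261 and 1464 at 0.1x, and 1301, 1535 and 1299.7 at 1x. All 9 samples on the MASLD diet lay above the SD samples. The rise was 0.38 ± 0.13 in MASLD (adjusted p = 0.0395), 0.49 ± 0.13 at 0.1x (adjusted p = 0.0158) and 0.52 ± 0.13 at 1x (adjusted p = 0.0123). The first was lost with RLE factors and without SD replicate 3 or 4, any of the 3 MASLD samples or 1x replicate 5 (0.0531 to 0.141), the second without SD replicate 3 or 4 or 0.1x replicate 4 (0.0540 to 0.0612), and the third without 1x replicate 4 (0.0504). Pdk2, a kinase that switches off pyruvate dehydrogenase, stood at 187, 159 and 163 CPM in SD, 117, 116 and 132 in MASLD, 120.1, 96.7 and 143 at 0.1x, and 141, 141 and 169 at 1x. It fell by 0.48 ± 0.14 with the diet (adjusted p = 0.0187), not without SD replicate 3 or MASLD replicate 3 or 4 (0.0618 to 0.0736). At 0.1x it was 0.50 ± 0.14 below SD (adjusted p = 0.0206), not without SD replicate 3 or 0.1x replicate 1 or 3 (0.0517 to 0.0686).

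**Figure D3:**
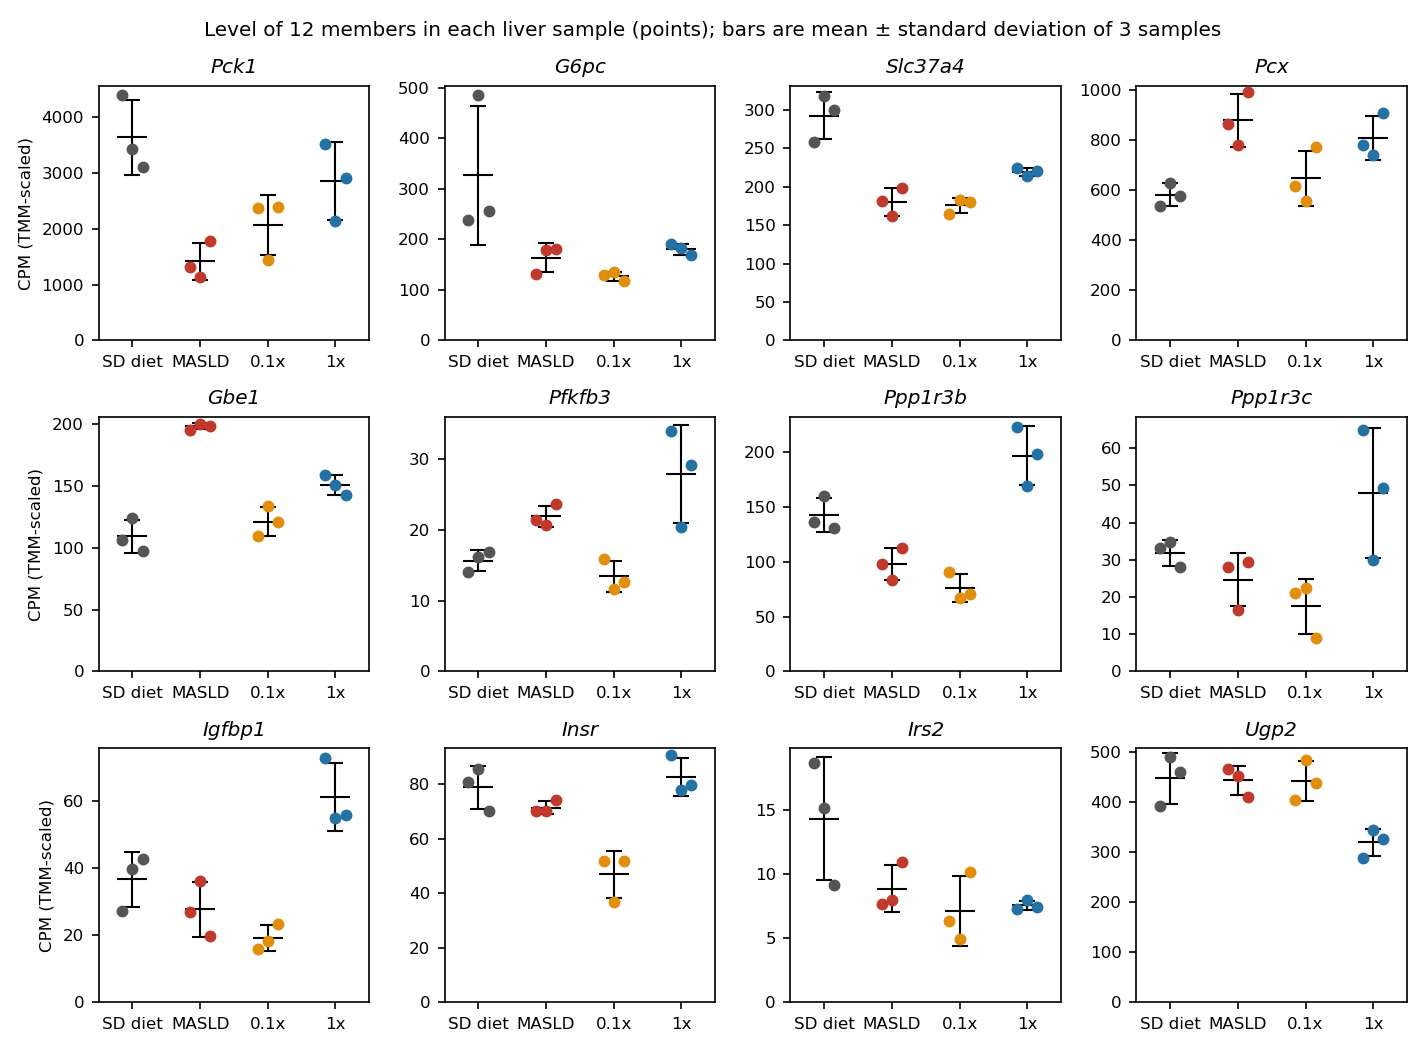
CPM of 12 members in each of the 12 liver samples (points), with the mean and standard deviation of each group of 3 (bars). For Ppp1r3b and Igfbp1 the 1x samples lie above all others, and for Gbe1 the 3 MASLD samples lie near 200.4 CPM, above all others.

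Ppp1r3b, Ppp1r3c and Ppp1r3g encode subunits that bring protein phosphatase 1 to glycogen, where it switches glycogen synthase on. Ppp1r3b, the form best known from liver, stood at 136, 160.0 and 131 CPM in SD, 98.4, 83.4 and 112 in MASLD, 90.3, 66.7 and 70.5 at 0.1x, and 223, 169 and 198 at 1x. The 1x samples were above all others. Ppp1r3b was 1.00 ± 0.15 higher at 1x than in MASLD (adjusted p = 0.00330) and 1.38 ± 0.15 higher than at 0.1x (adjusted p = 0.00149). Both calls held with the trend removed (1.02 and 1.24) and without any 1 library. Its fall with the diet (−0.54 ± 0.15, adjusted p = 0.0151) was lost without SD replicate 4 or MASLD replicate 4 (0.0662 and 0.0815), whereas its lower level at 0.1x than in SD (−0.91 ± 0.15, adjusted p = 8.08e-04) held. At 1x it was 0.47 ± 0.15 above SD (adjusted p = 0.0399), which was lost with the trend removed (0.34, adjusted p = 0.0838) and without SD replicate 3 or 5, MASLD replicate 3, or 1x replicate 2 or 5 (0.0591 to 0.176).

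Ppp1r3c stood at 33.1, 34.7 and 28.0 CPM in SD, 28.0, 16.4 and 29.4 in MASLD, 21.2, 22.4 and 8.98 at 0.1x, and 65.0, 30.02 and 49.2 at 1x. The 1x samples all lay above MASLD and 0.1x and were widely spread. It was 1.46 ± 0.32 higher at 1x than at 0.1x (adjusted p = 0.0134), a 2.74-fold difference that held with the trend removed (1.53) and was lost without 1x replicate 2 (0.0816). Against MASLD its difference at 1x was 0.97 ± 0.31 and did not pass (adjusted p = 0.118). At 0.1x against SD its difference of −0.86 did not pass, and with the trend removed it did (−0.96, adjusted p = 0.0397). Ppp1r3g, at 4.05 to 10.5 CPM the rarest of these subunits, did not pass in any comparison. Its difference between the doses was −0.66 ± 0.26 (adjusted p = 0.0959), with all 1x samples below those of 0.1x.

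Gbe1, the branching enzyme of glycogen, stood at 106, 124 and 97.7 CPM in SD, 196, 200.4 and 199 in MASLD, 109.7, 134 and 121 at 0.1x, and 159, 151 and 143 at 1x. The MASLD samples formed a tight group above all others, and 1x lay between MASLD and 0.1x with no overlap. Gbe1 rose by 0.86 ± 0.11 with the diet (adjusted p = 6.77e-05) and fell by 0.71 ± 0.11 at 0.1x against MASLD (adjusted p = 0.00477), and both calls held with the trend removed and without any 1 library. Both differences rest on the same MASLD libraries. At 1x the difference from MASLD was −0.39 ± 0.11 (adjusted p = 0.0746), and −0.41 with the trend removed (0.0361). DESeq2 called this difference and that between the doses (adjusted p = 0.0183 and 0.0481). Gbe1 at 1x was 0.46 ± 0.11 above SD (adjusted p = 0.00987), not without SD replicate 5 (0.0580).

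Ugp2, which makes UDP-glucose, the sugar donor of glycogen synthesis, stood at 391, 489.5 and 460.4 CPM in SD, 466, 453 and 410.4 in MASLD, 405, 484 and 439 at 0.1x, and 289, 344 and 325 at 1x. The 1x samples lay below all others. Its difference at 1x was −0.47 ± 0.12 from MASLD (adjusted p = 0.0493), −0.47 ± 0.12 from 0.1x (adjusted p = 0.0239) and −0.49 ± 0.12 from SD (adjusted p = 0.0117). The first call was lost with RLE factors and in 10 of the 12 runs that left out 1 library (0.0547 to 0.207), all but those without SD replicate 3 and 0.1x replicate 3. The second was lost with the trend removed (−0.33, adjusted p = 0.110) and without 0.1x replicate 3 or 1x replicate 2 or 5 (0.0561 to 0.109), and the third without SD replicate 4 or 1x replicate 2 (0.0515 and 0.0538). Gys2, the liver glycogen synthase, lay between 216 and 406 CPM, and Pygl, the liver phosphorylase that breaks glycogen down, between 425 and 636 CPM, and each did not pass in any comparison. The difference of Gys2 at 1x from MASLD was 0.48 ± 0.16 (adjusted p = 0.129).

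Igfbp1 encodes a secreted protein that binds insulin-like growth factors, and insulin is known to lower its transcription. It stood at 27.2, 39.7 and 42.8 CPM in SD, 27.0, 36.1 and 19.9 in MASLD, 15.8, 18.1 and 23.3 at 0.1x, and 72.8, 54.8 and 55.7 at 1x. The 1x samples were above all others. Igfbp1 was 1.68 ± 0.22 higher at 1x than at 0.1x, a 3.20-fold difference (adjusted p = 0.00178) and the largest of the 29 members in this comparison. That call held with the trend removed (1.91) and without any 1 library, as did its lower level at 0.1x than in SD (−0.94 ± 0.22, adjusted p = 0.00787). Against MASLD it rose by 1.14 ± 0.22 at 1x (adjusted p = 0.0125), not without MASLD replicate 3 or 1x replicate 2 (0.0592 and 0.0650). Against SD it was 0.74 ± 0.22 higher at 1x (adjusted p = 0.0254), not without SD replicate 3 or 1x replicate 2 (0.0886 and 0.125). Its promoter, shown above, is 1 of 4 among the members with the insulin response core. The others of those 4, G6pc, Irs1 and Irs2, did not pass between the doses (adjusted p 0.129, 0.742 and 0.856).

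Insr, the insulin receptor, stood at 80.7, 85.4 and 70.1 CPM in SD, 70.0, 70.0 and 74.1 in MASLD, 51.9, 36.7 and 51.9 at 0.1x, and 90.5, 77.9 and 79.5 at 1x. The 0.1x samples lay below all others. Insr was lower at 0.1x than in MASLD (−0.61 ± 0.13, adjusted p = 0.0142) and SD (−0.75 ± 0.13, adjusted p = 0.00143), and 0.82 ± 0.13 higher at 1x than at 0.1x (adjusted p = 0.00510). With the trend removed these were −0.22 (adjusted p = 0.216), −0.60 (5.57e-04) and 0.46 (0.0206), so the difference from MASLD did not pass and the other two did. The call against MASLD was also lost without MASLD replicate 4 or 5 (0.0506 and 0.0541). In MASLD against SD Insr differed by −0.14 ± 0.13 (adjusted p = 0.451), and by −0.38 with the trend removed (adjusted p = 0.00753).

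The adaptors Irs1 and Irs2 were lower in each group on the MASLD diet than in SD by their means. Irs1 stood at 10.6, 11.1 and 8.75 CPM in SD, 7.17, 8.36 and 8.08 in MASLD, 7.50, 5.48 and 8.19 at 0.1x, and 8.01, 6.65 and 7.93 at 1x, with SD above all others. Its difference passed at 0.1x against SD (−0.53 ± 0.16, adjusted p = 0.0338), and that call was lost with the trend removed (−0.32, adjusted p = 0.0653) and without SD replicate 3 or 4 or 0.1x replicate 1 or 3 (0.0529 to 0.119). At 1x against SD its difference of −0.43 ± 0.16 did not pass (adjusted p = 0.0733), but it passed with the trend removed (−0.62, adjusted p = 0.00193) and by DESeq2 (adjusted p = 0.0492). Irs2 stood at 18.7, 15.1 and 9.19 CPM in SD, 7.672, 8.0015 and 10.97 in MASLD, 6.32, 4.93 and 10.2 at 0.1x, and 7.27, 7.97 and 7.48 at 1x. It was lower than SD at 1x (−0.92 ± 0.26, adjusted p = 0.0226) and at 0.1x, with 1 SD sample inside the range of 0.1x (fold 0.498, adjusted p = 0.0149). These calls were lost without SD replicate 3 or 4 or 1x replicate 2 or 5 (0.0612 to 0.0913) and without SD replicate 3 or 0.1x replicate 1 or 3 (0.0526 to 0.0610). In MASLD against SD Irs1 (−0.37 ± 0.16, adjusted p = 0.0997) and Irs2 (−0.69 ± 0.26, adjusted p = 0.0580) did not pass, whereas with the trend removed both did (−0.60 with 0.00165, and −0.90 with 0.00564).

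Foxo1 stood at 41.1, 35.2 and 33.6 CPM in SD, 38.2, 40.0 and 43.1 in MASLD, 39.3, 25.3 and 36.5 at 0.1x, and 59.7, 41.3 and 62.1 at 1x. The lowest 1x sample lay inside the MASLD range and above all those of SD and 0.1x. Foxo1 was 0.69 ± 0.17 higher at 1x than at 0.1x (adjusted p = 0.0209) and 0.57 ± 0.17 higher than in SD (adjusted p = 0.0299). Both were lost with the trend removed (0.32 with 0.168, and 0.36 with 0.0756), the first without 0.1x replicate 3 or 1x replicate 2 or 5 (0.0522 to 0.103), and the second without SD replicate 4 or 5 or 1x replicate 2 or 5 (0.0834 to 0.122). Ppargc1a stood at 3.17 to 5.07 CPM in all samples but 1x replicate 2, which stood at 9.46, and it did not pass in any comparison. Akt2, at 86.1 to 109 CPM, did not pass in any comparison.

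**Figure D4:**
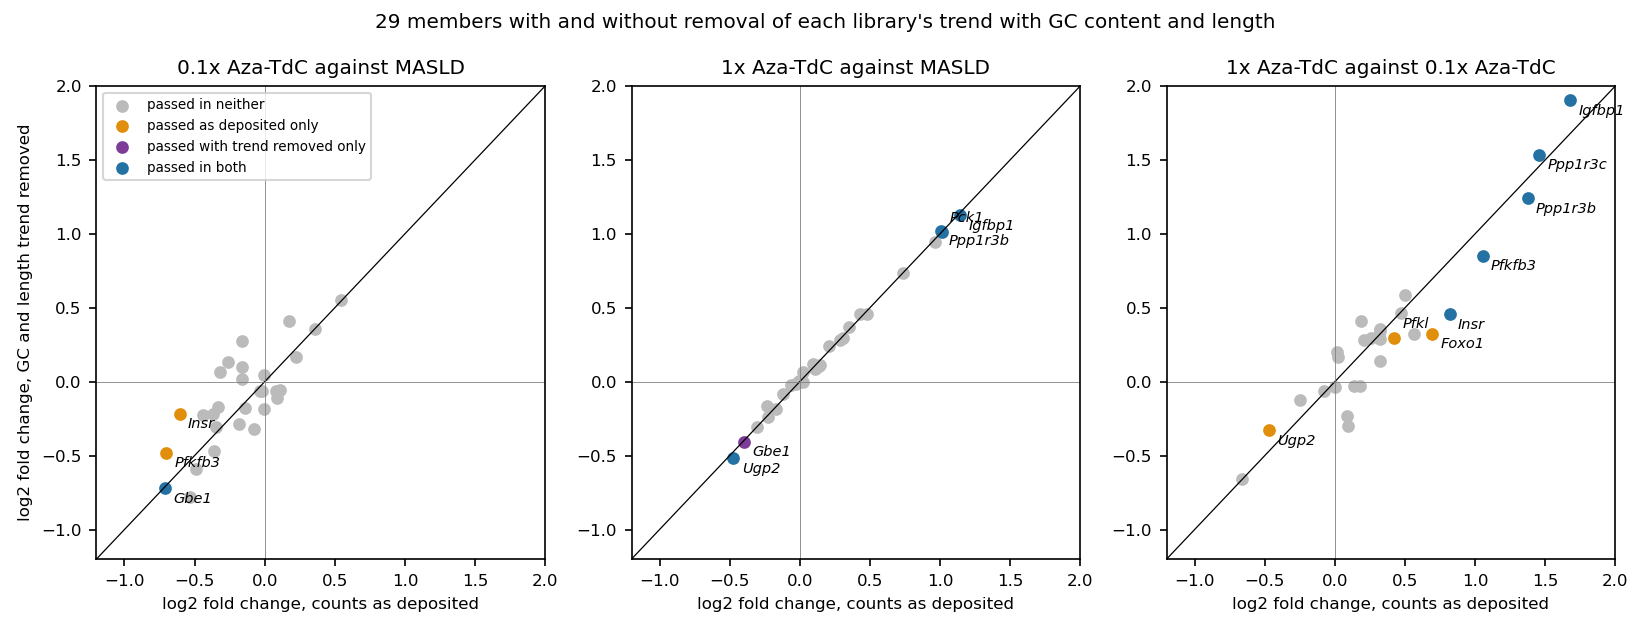
log2 fold change of the 29 members from the counts as deposited (x axis) and with each library's trend with GC content and length removed (y axis) in 3 comparisons, coloured by the setting in which the adjusted p was under 0.05. Points lie near the line of equality for 1x against MASLD, while Insr moves from −0.61 to −0.22 for 0.1x against MASLD.

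The other genes of these pathways were read from 4 lists of 103 genes, of which 99 were tested (Hkdc1, Ppp1r3d, Ppp1r3f and Foxo6 had 70, 42, 23 and 15 counts in all samples together and were not). With the diet 25 rose and 20 fell (15.6% and 13.9% of all genes), at 0.1x against MASLD 5 rose and 14 fell (6.08% and 7.09%), and at 1x against MASLD 3 rose and 1 fell (1.49% and 1.62%). Between the doses 11 were higher at 1x and 3 lower (7.13% and 5.86% of all genes). Against SD the counts were 10 higher and 24 lower at 0.1x (9.85% and 10.9%) and 14 and 11 at 1x (9.91% and 9.84%). In the list of insulin signalling and transcription 10 of 40 fell and 3 rose at 0.1x against MASLD, and 8 of 40 were higher and 2 lower at 1x than at 0.1x, beside those all-gene shares.

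With the diet, the list of gluconeogenesis and pyruvate entry had 3 of 13 higher and 4 lower, to be read, like the next lists, beside 15.6% of all genes higher and 13.9% lower. Got1, the cytosolic aspartate aminotransferase, fell by 2.73 ± 0.18 (adjusted p = 1.33e-07), and Gpt, the alanine aminotransferase that feeds alanine into pyruvate, fell by 1.20 ± 0.12 (adjusted p = 6.73e-06). Pck2, the mitochondrial counterpart of Pck1, rose by 1.397 ± 0.22 (adjusted p = 3.52e-04). In glycolysis and glucose uptake 7 of 27 rose and 3 fell. Pdk4, another pyruvate dehydrogenase kinase, rose by 3.15 ± 0.36 (adjusted p = 1.92e-05), where the member Pdk2 fell. Pfkp, the platelet phosphofructokinase, rose by 1.38 ± 0.22 and Pdha1, a pyruvate dehydrogenase subunit, by 0.52 ± 0.09.

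Among the other glycogen genes 6 of 19 rose and 1 fell with the diet. Phkg2, a phosphorylase kinase subunit, fell by 0.79 ± 0.12, and Pygb, the brain phosphorylase, rose by 1.24 ± 0.22. Among insulin signalling and transcription 9 of 40 rose and 12 fell, beside the same 15.6% and 13.9%. Mtor rose by 0.92 ± 0.15, Tbc1d4, an AKT substrate, rose by 1.20 ± 0.24, and Sik1, a kinase that restrains the glucagon response, fell by 1.31 ± 0.24. The hepatocyte factor Hnf4a fell by 0.65 ± 0.14 (adjusted p = 0.00336). Mlxipl, which encodes the glucose sensor ChREBP, fell by 0.47 ± 0.15 (adjusted p = 0.0274), not without SD replicate 3 or MASLD replicate 3 or 4 (0.0802 to 0.113). Srebf1, the lipogenic factor that insulin raises, rose by 0.71 ± 0.19 (adjusted p = 0.0111), not without SD replicate 5 (0.0504).

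At 0.1x against MASLD, Rptor, a partner of mTOR (−0.55 ± 0.12), and Pdpk1, the kinase upstream of AKT (−0.73 ± 0.17), were lower, and each lost its call with the trend removed (adjusted p 0.544 and 0.128). Pygb (−0.79 ± 0.22), Gys1 (−0.88 ± 0.26), Pdk4 (−1.03 ± 0.32) and Igfbp2 (0.65 ± 0.14, higher) lost theirs as well (0.104, 0.145, 0.0916 and 0.0871). Mpc2, part of the mitochondrial pyruvate carrier, was 0.71 ± 0.18 higher (adjusted p = 0.0236), also with the trend removed. All 7 calls were lost without MASLD replicate 4, 6 of them without MASLD replicate 3, 5 without MASLD replicate 5, and 1 to 3 without one of the 3 samples of 0.1x, SD replicate 4 or 5, or 1x replicate 4 or 5 (0.0502 to 0.153).

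At 1x against MASLD, Got1 (0.90 ± 0.17), Gpt (0.47 ± 0.12) and Slc2a1, the glucose transporter GLUT1 (0.67 ± 0.17), were higher, and Gpd1, the glycerol 3-phosphate dehydrogenase (−0.64 ± 0.11), was lower. These 4 calls held with the trend removed, and all 4 were lost without MASLD replicate 3, 3 without MASLD replicate 4 and 3 without 1x replicate 2. Leaving out MASLD replicate 5, 0.1x replicate 4, 1x replicate 4 or 1x replicate 5 lost 2 each, and SD replicate 4 or 5 lost 1 each (0.0506 to 0.235). Between the doses, Gpt (0.51 ± 0.12), Got1 (0.64 ± 0.17), Gys1, the muscle glycogen synthase (0.98 ± 0.26), Pik3r1, a regulatory subunit of PI3 kinase (0.66 ± 0.15), Rptor (0.53 ± 0.12) and Trib1 (0.43 ± 0.10) were higher at 1x, and Mpc2 (−0.69 ± 0.18) was lower. With the trend removed 4 of these 7 were lost (Gys1, Pik3r1, Rptor and Trib1). All 7 were lost without 1x replicate 2, 5 without 1x replicate 5, and 1 to 3 without any one of the 0.1x samples (0.0525 to 0.128).

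Against SD, Got1 was lower at 0.1x (−2.46 ± 0.17) and at 1x (−1.82 ± 0.17), and so were Gpt (−1.24 ± 0.12 and −0.73 ± 0.12) and Hnf4a (−0.93 ± 0.14 and −0.84 ± 0.14). Pdk4 (2.11 ± 0.36 and 3.04 ± 0.36) and Pfkp (1.29 ± 0.23 and 1.19 ± 0.22) were higher at both doses. These 10 calls held with the trend removed and without any 1 library. So did the rises of Pck2 at 1x (1.21 ± 0.22) and of Fbp2, the muscle fructose bisphosphatase, at 0.1x (3.62 ± 0.66, from 0.0834 to 1.07 CPM), the falls of Tsc1 (−1.07 ± 0.16) and Trib1 (−0.51 ± 0.10) at 0.1x, and those of Cebpa (−0.77 ± 0.13) and Trib3 (−1.09 ± 0.22) at 1x. Without SD replicate 3 the difference of Trib3 was −0.70. The calls of Pdha1 held without any 1 library at 0.1x (0.39 ± 0.09) but not at 1x (0.34 ± 0.09), and those of Gyg, Gys1 and Phkg2 at 0.1x and of Phkg2, Phka1 and Ppp1r3e at 1x were each lost without 3 or more libraries taken singly, among them SD replicate 4 or 5 in every case. With the trend removed, Gys1 at 0.1x (−0.71, adjusted p = 0.0745) and Phka1 at 1x (0.48, adjusted p = 0.0865) did not pass.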

How the data were processed

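The authors deposited 1 table of whole-number counts, 12 columns wide and 55471 gene IDs long, with each column tied to its sample by library name. Reads were aligned with STAR 2.7.3a to mm10, per the submitters' processing notes. The sources used here name no counting tool or strand setting, so reads of overlapping and antisense genes cannot be told apart. For 1 sample the library name gives 8 where the title gives replicate 5, and the replicate number follows the title. GENCODE release M21 matched 55230 IDs and gave symbols and exon lengths.

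The members and all gene lists were chosen with earlier results of these data known. All 29 members are named. Of the other lists, up to 3 genes per list and comparison with the smallest adjusted p and at least 1 CPM are named, with Mlxipl, Hnf4a, Pdk4 and Srebf1 in the comparison of diets, and 2 genes that this rule takes are not reported here. With edgeR 4.0.16 (R 4.3.3), low genes were removed by filterByExpr on the groups, libraries were scaled by TMM and genes were fitted over all 12 samples with 1 coefficient per group. Contrasts were tested two-sided with the quasi-likelihood F test at a Benjamini-Hochberg adjusted p under 0.05. The same test was run on simulated counts with the spread fitted here. These held no library trend or replicate structure, so that run cannot show how the test behaves under either. Each standard error was taken as the size of the log2 value over the root of F. Alternatives were upper-quartile or RLE factors, tests without a filter or with genes of at least 1 CPM on average, DESeq2 1.42.0, fits of 2 groups, a replicate block, removal of a spline trend with GC content and length, and leaving out each library. Replicates of a group differed by more than counting noise in every pair.

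Other listed cell types had marker sums, over all samples, of 119 to 223 CPM (endothelial), 116 to 306 (stellate), 23.1 to 160.4 (cholangiocyte), 200.2 to 701 (erythroid), 6.16 to 41.5 (pancreas), 1.91 to 10.4 (T, NK and B cells), 1.04 to 4.81 (neutrophil) and 0.462 to 11.4 (adipocyte), with Lep and Amy2a5 at 0 in all samples.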

Additional observations from a re-analysis of the deposited data

Results flagged for a closer look

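The 2 doses of Aza-TdC differed in 8 of the 29 members by the direct test of 1x against 0.1x (edgeR quasi-likelihood F test; 7 higher and 1 lower, beside 7.13% and 5.86% of all genes), which also tests the difference between their effects against the shared MASLD group. The log2 difference, 1x minus 0.1x, was 1.68 for Igfbp1 (adjusted p = 0.00178), 1.46 for Ppp1r3c (0.0134), 1.38 for Ppp1r3b (0.00149), 1.05 for Pfkfb3 (0.00493), 0.82 for Insr (0.00510), 0.69 for Foxo1 (0.0209), 0.42 for Pfkl (0.0372) and −0.47 for Ugp2 (0.0239). The 3 samples of each dose did not overlap for any of these 8, which adds no support, as the test that picked them used the same samples. G6pc, Slc37a4, Pklr, Gbe1, Ppp1r3g and Akt2, which did not pass, did not overlap between the doses either. The share of all genes without overlap was not counted. With the trend in GC content and length removed, Foxo1, Pfkl and Ugp2 did not pass.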

How the results depend on the processing

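No fold change of a member that passed changed sign in any of the 22 alternatives. Over all 174 fold changes of members, 175 of 3828 recomputed values changed sign, 0 of them for a fold change that had passed. Among those of at least 0.3 in size, with the trend removed Irs2 at 0.1x against MASLD was 0.0627. With the replicate block and trend removal together it was 0.0962, and Ppargc1a was −0.116 between the doses and −0.0612 at 1x against SD. Leaving out 1 library gave 6 to 14 calls among members in the comparison of diets, 1 to 5 at 0.1x against MASLD, 1 to 5 at 1x against MASLD, 4 to 9 between the doses, 7 to 14 at 0.1x against SD and 6 to 16 at 1x against SD. Without a filter on low counts 8 members passed at 0.1x and 8 at 1x against MASLD, with the trend removed 1 at 0.1x against MASLD and 5 between the doses, and with 2 groups fitted alone 8 at 0.1x against SD. Without 0.1x replicate 3 and 1x replicate 2 together, a run chosen after the data were seen, 4 passed between the doses.

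Replicate numbers are shared by some groups, and the labels do not say what they mark. Same-numbered samples did not deviate together (correlations from −0.215 to 0.0757). With so few samples per group this shows no pairing but cannot exclude one. With the replicate block 0 members passed at 0.1x against MASLD, 0 at 1x against MASLD, 0 between the doses, 7 at 0.1x against SD and 2 at 1x against SD (edgeR; unadjusted p was under 0.05 for 5, 7 and 9 members where 0 passed, and DESeq2 was not run with a block). With replicate block and trend removal together the counts were 0, 1, 0, 7 and 4 (unadjusted p under 0.05 for 4 and 6 where 0 passed). The block changed the comparison of diets by less than 1.5 times. Replicate 1 occurs only at 0.1x and replicate 2 only at 1x, so the block fits each of these libraries exactly. They then add nothing to the contrasts, and only number 4 occurs at both doses. With the block alone, unadjusted p was under 0.05 for 3349 of all genes at 0.1x against MASLD, 1556 at 1x against MASLD and 1639 between the doses.

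Scaling by library totals alone would shift every log2 fold change with the diet by 0.36, at 0.1x against MASLD by −0.14, and against SD by 0.22 at 0.1x and 0.30 at 1x. It turns the sign of 9 of the 29 members with the diet, 3 at 0.1x and 2 at 1x against MASLD, 10 at 0.1x against SD and 2 at 1x against SD, none of which had passed. As the shift is the same for every gene, larger changes could hardly turn. It moved 47 of 116 group means by more than their standard deviation, and the longest transcript as length moved 72. The CPM of rare members such as Ppargc1a and Ppp1r3g rest on fewer counts than most, 405 to 821 and 659 to 778 per group. Spread among samples also limits their precision, as for Ppargc1a at 1x (mean 6.27 CPM, standard deviation 2.77).

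The number of all genes called moved by more than 1.5 times under these settings. In the comparison of diets 4085 became 2654 without MASLD replicate 4. At 0.1x against MASLD 1826 became 33 with the replicate block, 495 with the trend removed, 1 with both, 594, 382 and 461 without MASLD replicate 3, 4 and 5, and 1145 without 0.1x replicate 1. At 1x against MASLD 431 became 1131 without the filter, 807 with DESeq2, 1000 with 2 groups, 53 with the replicate block, 74 with block and trend removal, 102 and 83 without MASLD replicate 3 and 4, 661 without 0.1x replicate 3, and 148, 154 and 216 without 1x replicate 2, 4 and 5. Between the doses 1802 became 736 with 2 groups, 656 with the trend removed, 0 with the replicate block and 0 with both (edgeR, unadjusted p under 0.05 for 1639 and 1165), 1135 without 0.1x replicate 1, 210 and 782 without 1x replicate 2 and 5, and 260 without both libraries of strongest trend. Against SD, 2872 at 0.1x became 1647 with 2 groups, 1379 with the replicate block, 1642 with block and trend removal and 1790 without SD replicate 4. At 1x 2739 became 1122 with the replicate block, 1347 with block and trend removal, 1726 without SD replicate 5 and 1699 without 1x replicate 2. Runs with the block in effect leave out 0.1x replicate 1 and 1x replicate 2. The cause of the moves was not tested.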
